A study of Mus musculus with 5 samples.

Results

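Global run-on sequencing (GRO-seq) recorded where RNA polymerase was engaged in mouse embryonic stem (ES) cells, and genes were ranked by it within that library alone. The samples were chosen by their titles, which name 3 of the 5 samples of the study as ES cells. The other 2 are embryonic fibroblasts, and they are not analysed here. All 3 ES cell samples came from the line V6.5, derived from a C57Bl/6(f) x 129/Sv(m) cross, at passages 12 to 14. They were kept with the cytokine LIF on a layer of irradiated feeder cells. The labels name no altered gene and no further agent, so the values describe 1 line in 1 culture condition. The authors deposited the reads of the 3 samples as 1 pooled set in which no read carries a sample name. Every value below therefore comes from 1 pooled library, without a spread between replicates, and no test was made. Exact Poisson 95% intervals are given for single genes; they cover counting error only, and since the reads carry no molecular identifiers, reads at 1 position may be copies of 1 molecule.

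In GRO-seq, isolated nuclei are allowed to extend transcripts that polymerases had already begun, with a brominated nucleotide in the mix. The marked RNA is then purified and sequenced, so a read reports a polymerase and its strand rather than the amount of stable RNA. At many animal genes polymerase II starts, moves a short way and waits near the promoter until the kinase P-TEFb releases it into the gene body. ES cells keep a self-renewing, pluripotent state through a circuit of transcription factors around Pou5f1, Sox2 and Nanog, while many regulators of later lineages are held silent by Polycomb complexes.

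A gene was measured in a pair of windows on its own strand, each read counted at its 5′ end. The promoter window ran from 50 bp before to 300 bp after the annotated start. The body ran from 1000 bp after the start to the annotated end. Density is given in RPKM, with reads of the mitochondrial genome left out of the scaling total. A percentile is the share of measured genes with a lower density, with ties placed at their mid rank. Of 22885 gene models of at least 2000 bp, 20716 had no other gene on the same strand in these windows and were measured. All coordinates are NCBIM37 (mm9).

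The library carried the signature of its label. The body of Tdgf1, a co-receptor for Nodal (chromosome 9, 110842114 to 110848662), held 1024 reads, 21.5 RPKM (20.2 to 22.9), and ranked 52. Lin28a, which encodes an RNA-binding protein that blocks let-7 maturation, held 699 body reads and 5.62 RPKM (5.21 to 6.05). The gene of the core pluripotency factor Pou5f1 held 163 reads and 5.08 RPKM (4.33 to 5.93). Nanog, the homeobox factor gene, was the lowest of these ES cell markers with 162 reads and 3.08 RPKM (2.62 to 3.59). All 4 bodies lay in the highest 10.0% of genes (2072 genes), and the promoters of Tdgf1 and Pou5f1 did so as well.

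Lists of markers of other cell types had lower median body percentiles than the ES cell markers (98). The feeder cells are fibroblasts, and of 25 measured fibroblast markers 23 had a body above the intergenic background, with a median body percentile of 49.2 and 3 in the highest 10.0%. Those 3 were Vim (intermediate filament, 5.45 RPKM), Fn1 (fibronectin, 2.49 RPKM) and Thbs1 (thrombospondin, 2.43 RPKM), genes that many cell types transcribe. The collagen gene Col1a1 held 75 body reads (0.553 RPKM), Postn 1 read and Lum 0 reads. How many reads came from feeder cells was not tested, and in a bulk library fewer cells of a type and less RNA per cell cannot be told apart. Bodies above background numbered 0 of 3 liver markers, 1 of 4 blood markers and 3 of 5 skeletal muscle markers, against 65.6% of all genes. Primitive endoderm markers were above background in 8 of 10 cases and trophoblast markers in 5 of 6, with 0 of either list in the highest 10.0%. The neural list had 5 of 6 members above background and 1, the neural progenitor filament gene Nes (3.87 RPKM), in the highest 10.0%. The shares above background in the fibroblast (92%), endoderm (80%), trophoblast (83.3%) and neural (83.3%) lists exceeded the 65.6% of all genes. Among single genes, Vim lay above Pou5f1 and Nanog in body density, and Nes above Nanog.

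The library held 8616592 aligned reads, of which 8571395 lay outside the mitochondrial genome, and 74.4% of all reads would remain if each position and strand were counted once. Reads of 35 and 36 bases gave body densities with a Spearman correlation across genes of 0.955 and promoter densities with one of 0.89 (20716 genes, which are not independent replicates). The sources used here do not say what sets reads of these lengths apart. Gene bodies held 42.3% of the reads outside the mitochondrial genome and promoter windows 3.49%. DNA more than 10000 bp from any gene gave 0.187 reads per kb and strand (0.0218 RPKM). The lower limit of the Poisson interval lay above that background in 13590 of 20716 bodies (65.6%), which are called active below. Reads that lie past the end of another gene on the same strand, described below, were not taken out of this call. At least 20 promoter reads were found at 4254 genes (20.5%). No body read was found in 3381 genes, which allows a count of up to 3.69 by the same interval.

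Polymerase was unevenly spread over genes. The median body density was 0.248 RPKM, the 90th percentile 2.12, the 99th 8.61 and the maximum 114 RPKM. A set of 515 genes held 25% of all body reads, 1659 genes held 50% and 3905 held 75%. The 208 genes with the most body reads (1%) held 13.8% of them. Of promoter reads, 50% lay in 1367 genes and 17.5% in the leading 208. Promoter windows are of equal length and bodies are not, so the shares of promoters and bodies are not like measures.

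The gene bodies of highest density were short genes for small nucleolar RNAs (snoRNAs), nuclear long non-coding RNAs and ribosomal proteins. Gas5, a spliced non-coding RNA whose introns encode snoRNAs (chromosome 1, 162964738 to 162968670), ranked first with 2875 body reads and 114 RPKM (110 to 119). Snhg1, another snoRNA host, followed with 1459 reads and 87.4 RPKM (83.0 to 92.0). Malat1, a non-coding RNA of nuclear speckles (chromosome 19, 5795690 to 5802671), held 4043 reads and 78.8 RPKM (76.4 to 81.3). Neat1, the non-coding RNA that scaffolds paraspeckles, ranked 13 with 5874 reads and 34.7 RPKM (33.8 to 35.6). The snoRNA hosts 1110038B12Rik and 1500012F01Rik, the latter also known as Zfas1, ranked 4 and 6 with 60.5 and 58.1 RPKM. Among coding genes, the ribosomal protein genes Rpl3 (52.3 RPKM), Rps20 (44.3) and Rpl26 (28.7) and the constitutive chaperone gene Hspa8 (49.2) stood in the leading 25. So did Atf4, the transcription factor gene of the integrated stress response (33.4 RPKM), the anti-apoptotic gene Mcl1 (33.0) and the chaperone gene Hsp90ab1 (28.1). Of the leading 25 bodies, 13 were protein-coding and 17 came from genes under 5000 bp. Their median length was 4217 bp, against 16948 bp over all genes measured.

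A few of these ranks rested on reads stacked at 1 position. C230035I16Rik ranked 11 with 777 body reads, of which 46.3% shared 1 position, and it ranked 194 with each position counted once. The lincRNA gene Gm17667 ranked 12 with 2264 body reads, 54.1% of them at 1 position, and it ranked 1768 on that count. Of the leading 25 bodies, 20 stayed among the leading 25 with each position counted once and 22 among the leading 100. Over all genes, 2024 of the 2072 most densely read bodies stayed in the highest 10.0%.

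**Figure D1:**
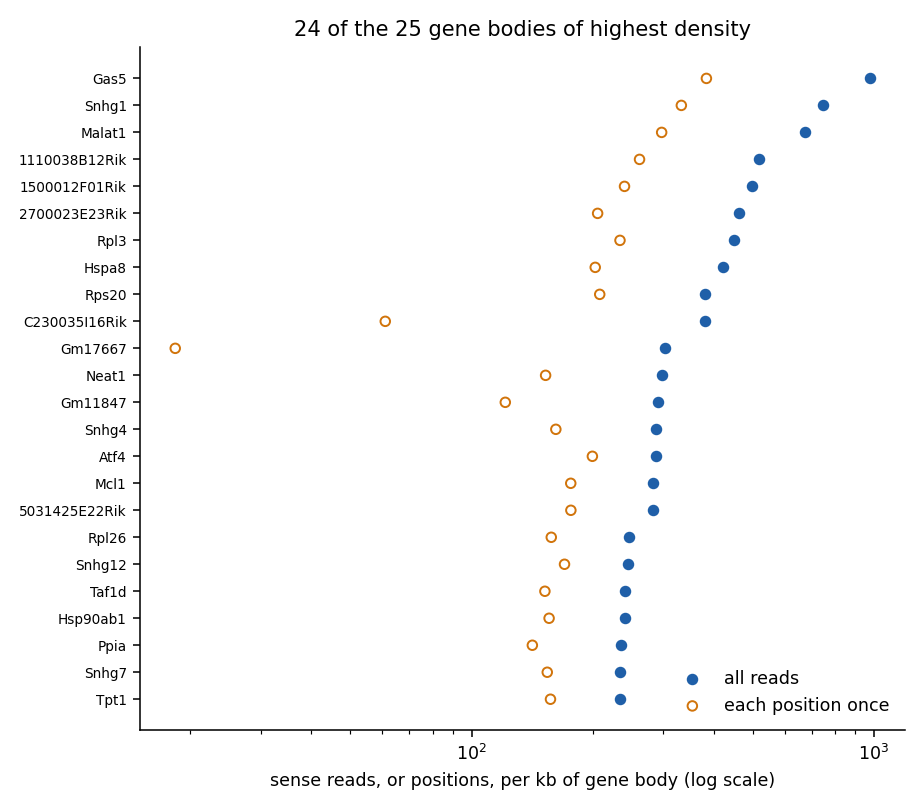
24 of the 25 gene bodies of highest density, from rank 1 at the top, with sense reads per kb of body (filled points) and distinct positions per kb (open points) on a log axis. Gas5 leads on both counts, while C230035I16Rik and Gm17667 fall far to the left once each position is counted once.

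snoRNA genes lay inside 252 measured bodies (1.22%), and 11 of the leading 25 bodies were among them. Of the 252 genes, 98 (38.9%) were in the highest 10.0% by body density, against 10.0% of all genes, and their median percentile was 82.5. All 19 genes with at least 3 annotated snoRNAs in the body were in the highest 10.0%. They include Taf1d, a subunit gene of the polymerase I selectivity factor (28.1 RPKM), Ncl, the nucleolin gene (23.8 RPKM), and Nop56, a core protein gene of box C/D snoRNPs (22.8 RPKM). Annotated small RNA genes, widened by 50 bp, took 36.9% of the body reads of Gas5 on 47.4% of its body length, and 67.4% of those of Snhg1 on 54.4%. In Snhg7 they took 35.5% of the reads on 16.6% of the length. With those stretches removed from reads and length, none of the 193 named genes moved in body percentile beyond its counting interval. For this check the interval was widened by a fraction of a percentile, which spans many ranks near the top. Many of the 193 genes hold no such stretch, and the order among the leading hosts was not tested by it.

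Genes of the translation machinery filled the upper end of the ranking. Of 68 measured ribosomal protein genes, 67 were active, against 65.6% of all genes. In the highest 10.0% by body density were 65 of them, with a list median of 14.6 RPKM and a median percentile of 99.5. The median percentile of all genes is 50. The exceptions were Rpl24 (0.937 RPKM, percentile 72.7) and the tissue-specific paralogs Rpl39l (0.253 RPKM) and Rpl3l (0.0637 RPKM), the latter a muscle form. Many ribosomal protein genes have processed pseudogene copies, and since the treatment of reads with several matches is not given in the sources used here, their counts are uncertain. Translation factor genes had 37 of 62 members in the highest 10.0%, led by the helicase gene Eif4a2 (26.5 RPKM). Ribosome biogenesis genes had 17 of 22, led by Npm1 (nucleophosmin, 27.0 RPKM) and Ncl, and 16 of 22 at the promoter. Bop1, a factor for the large ribosomal subunit, was low in the body (0.847 RPKM, percentile 70.5) and high at the promoter (61.8 RPKM, percentile 99.4).

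Splicing factor genes were almost as uniform, with 26 of 27 in the highest 10.0% by body density and a median percentile of 98.4. Hnrnpa2b1 led with 22.1 RPKM, followed by Hnrnpa1 (17.1) and the RNA helicase gene Ddx5 (13.8), and Srsf4 was lowest with 2.07 RPKM. Chaperone genes had 17 of 20 members there, from Hspa8 down to the co-chaperone gene Bag3 (0.818 RPKM). Glycolysis genes had 10 of 15, led by Gapdh (22.4 RPKM), Pkm2 (13.6) and Eno1 (10.6). The hexokinase gene Hk1 held 0.104 RPKM at percentile 40.0. Respiratory chain genes (29 of 69, median percentile 89.2) and proteasome genes (19 of 35, 90.4) had fewer members at the top, and the thymus-specific proteasome gene Psmb11 held 1 body read.

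All 21 measured pluripotency genes were active, against 65.6% of all genes, and 11 were in the highest 10.0% by body density. After Tdgf1, the highest were L1td1, an RNA-binding protein gene of early embryonic cells (9.08 RPKM), and Gdf3, a TGF-beta family ligand gene (7.25 RPKM). Sall4, a zinc-finger factor gene, held 5.02 RPKM and Zfp42, the marker also called Rex1, 2.47 RPKM. At the other end were Klf4 (0.511 RPKM), the nuclear receptor genes Esrrb (0.241 RPKM) and Nr5a2 (0.161 RPKM), and Prdm14 (14 body reads, 0.128 RPKM). Esrrb and Nr5a2 are long genes (160512 and 116844 bp), and neither had a read in the promoter window of its longest annotated transcript. Of the promoters of pluripotency genes, 2 of 21 (9.52%) were in the highest 10.0%, which is close to the share of all genes, with a median promoter percentile of 79.0 against 48.8 for all genes. Sox2 could not be ranked because its model overlaps another gene on the same strand.

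Signalling genes of the Nodal, LIF, FGF and Wnt pathways had 12 of 27 bodies in the highest 10.0%. The highest were feedback inhibitors: Spry2, an antagonist of FGF signalling (14.8 RPKM), Lefty1, an antagonist of Nodal (12.7 RPKM), and Dusp6, the ERK phosphatase gene (9.42 RPKM). The ligand gene Nodal held 3.26 RPKM and the Wnt effector Ctnnb1 4.65 RPKM. The LIF receptor gene Lifr was the lowest of the list with 0.435 RPKM at percentile 57.7, and its downstream factor Stat3 held 1.08 RPKM.

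Chromatin regulators lay mostly above the median of all genes. Polycomb genes had 25 of 25 active and 8 in the highest 10.0%, against 65.6% and 10.0% of all genes. They were led by Phc1 (13.0 RPKM), a PRC1 subunit gene, and Cbx7 (4.96 RPKM), the chromobox gene that prevails in ES cells. Suz12 held 2.98 RPKM and the methyltransferase gene Ezh2 1.64 RPKM, while the alternative PRC1 members Bmi1 (0.366 RPKM) and Cbx8 (0.255 RPKM) were near the median of all genes. Genes for DNA methylation and its removal had 5 of 12 there, among them Dnmt3b, a de novo methyltransferase gene (3.74 RPKM), and Tet1, a methylcytosine oxidase gene (2.33 RPKM). None of the 12 promoters of this list was in the highest 10.0%. The BAF remodelling complex had 6 of 17 genes in the highest 10.0%. Arid1a led with 4.63 RPKM, and Smarcd3 and Smarca2, both subunits used in differentiated cells, were lowest with 0.0574 and 0.106 RPKM.

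Factors that act on pausing and elongation had all 24 members active, against 65.6% of all genes, and 10 in the highest 10.0%. Mycn (5.81 RPKM) and Hexim1, an inhibitor gene of P-TEFb (5.69 RPKM), were the highest. The kinase gene Cdk9 held 3.25 RPKM and the NELF subunit gene Cobra1 1.14 RPKM. Hexim1 also had 193 promoter reads (percentile 99.5).

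Cell cycle genes were read along the whole list, with 20 of 20 mitosis genes and 29 of 29 DNA replication genes active, against 65.6% of all genes. The mitotic genes Ccnb1 (cyclin B1, 7.62 RPKM), Cdc20 (6.59) and Cdk1 (5.92) and the replication genes Mcm7 (13.3) and Rrm2 (7.85) were the highest. At the lower end Cenpe held 1.48 RPKM and Pola1, on chromosome X, 0.543 RPKM. Immediate early genes had 11 of 19 in the highest 10.0% by body density and 10 of 19 by promoter density. Ctgf (18.9 RPKM), Jun (13.9) and Klf6 (13.0) led, and Egr3 held 0 body reads.

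Regulators of differentiated lineages were below the middle of the ranking in the median. None of 31 lineage factor genes and none of 21 Hox genes was in the highest 10.0% by body or promoter density. The median body percentile was 42.1 for the lineage factors, 17 of which were active, and 40.6 for the Hox genes, 11 of which were active. The active shares were 54.8% and 52.4%, against 65.6% of all genes. Both lists are of short genes, with median lengths of 7789 and 3526 bp, and the active share depends on length. Of all genes of 5000 to 10000 bp 57.7% were active, with a median body percentile of 45.8 and 13.5% in the highest 10.0%. For genes of 2000 to 5000 bp these values were 45.2%, 38.1 and 12.9%. The highest lineage factor body was that of Olig2, a neural bHLH factor gene (24 reads, 1.32 RPKM, percentile 80.5), and the highest Hox body that of Hoxb9 (25 reads, 0.705 RPKM). Myod1, the muscle factor gene, held 0 body reads and 8 promoter reads. Olfactory and vomeronasal receptor genes, which are used in sensory neurons, were active in 3 of 119 and 3 of 123 cases. Germline genes had 11 of 14 active but 0 in the highest 10.0%. The highest germline bodies were Tex19.1 (2.08 RPKM), Tdrd12 (1.20 RPKM) and Dmc1 (0.948 RPKM). Tsix held 1217 reads on its strand (2.71 RPKM), whereas Xist, the RNA of X inactivation that it overlaps on the opposite strand, held 1.

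**Figure D2:**
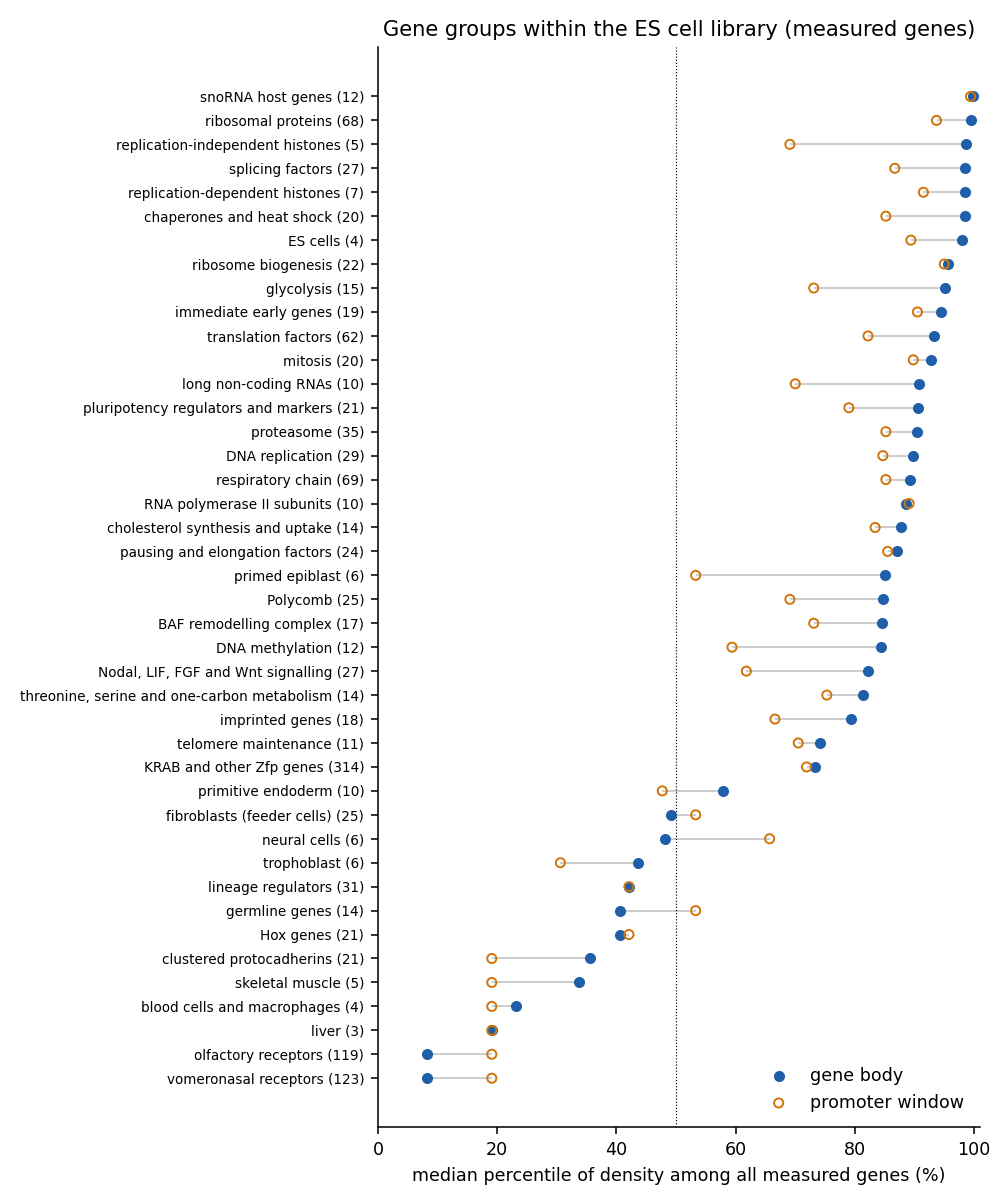
Median percentile of body density (filled) and promoter density (open) among all 20716 measured genes, for each list with its number of measured members; the dotted line marks 50%. snoRNA hosts and ribosomal protein genes stand at the upper end, receptor genes at the lower end, lineage factors (42.1) and Hox genes (40.6) below 50% in the body, and DNA methylation genes have a median body percentile of 84.4 but a median promoter percentile of 59.4.

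Protein-coding genes held 97.1% of body reads, and 12444 of 17400 (71.5%) were active. Of 1055 lincRNA genes 664 (62.9%) were active, of 1670 processed transcripts 409 (24.5%) and of 581 pseudogenes 70 (12%). By length, genes of 10000 to 20000 bp had 13.2% of members in the highest 10.0% by body density, and genes over 200000 bp had 0.132%. Of genes of 100000 to 200000 bp 78% were active, and of those over 200000 bp 64.6%, with a median body density of 0.072 RPKM. A long body passes the background limit at a lower density than a short one, so these shares depend on length. By chromosome, after 3 loci of extreme count were taken out, chromosome 11 had the most reads per Mb of sequence (5530) and chromosome X the fewest of chromosome X and the autosomes (1100). The next lowest was chromosome 14 with 2150. Genes of chromosome X had a median body percentile of 27.7, and 3.99% of them were in the highest 10.0%.

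Promoter windows ranked a different set of genes first. Ndufs7, a subunit gene of respiratory complex I (chromosome 10, 79711866 to 79719538), had the highest count, 1844 reads, and 81.5% of them shared 1 position. With each position counted once it ranked 151. Malat1 was second with 1124 reads (374 RPKM) and remained second on that count. Rps9, a ribosomal protein gene (chromosome 7, 3655595 to 3658503), had 1083 reads (360 RPKM). Eif4a2 had 884 promoter reads, but 63.6% lay at 1 position 279 bp after this start and 21 bp before another annotated one. Kdm5b, a histone demethylase gene, followed with 727 reads, the splicing factor gene Srsf5 with 667, the linker histone gene Hist1h1d with 621 and the transferrin receptor gene Tfrc with 610. Of the leading 25 promoters, 23 belonged to coding genes, 12 stayed among the leading 100 with each position counted once, and that count led with Nat10, an RNA acetyltransferase gene (386 reads, at most 3.63% at any position). A window can hold at most 351 positions, so the count of positions saturates at busy promoters.

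Promoter and body density ranked genes alike in broad terms and differed among the genes most densely read. Across all 20716 genes the Spearman correlation was 0.77, and it was 0.542 over the active genes. Over 3650 genes with at least 50 body and 20 promoter reads it was 0.218. That cut narrows the range of both measures, which in itself lowers a correlation. It is a cut on reads and not on density, so long genes of low density can remain. Both windows come from the same library, and a correlation across genes is a description only. Of the 2072 genes in the highest 10.0% by body density, 741 (35.8%) were also in the highest 10.0% by promoter density. Of the others, 152 were at or below the median promoter density, and 45 had no promoter read. Malat1 and Snhg1 were the only genes in the leading 25 of both rankings.

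**Figure D3:**
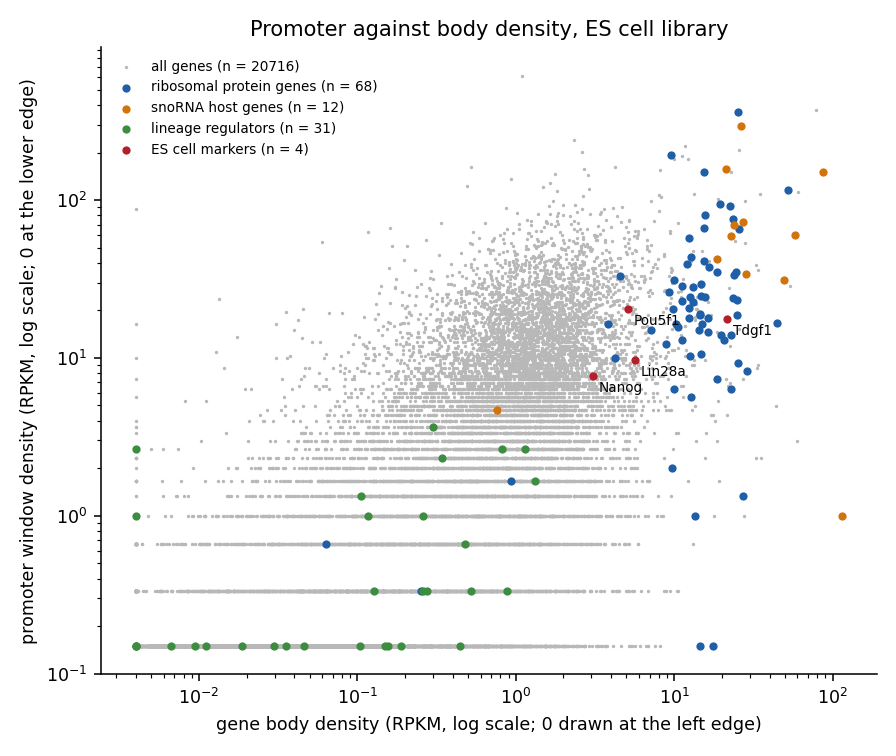
Promoter density against body density of each measured gene in RPKM on log axes, with genes at 0 drawn at the lower or left edge. Ribosomal protein genes (blue) and snoRNA hosts (orange) lie at high body density over a wide range of promoter density, lineage factors (green) mostly at lower values of both, and the 4 ES cell markers (red) are labelled.

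The promoter-to-body ratio, the density of the promoter window over that of the body, had a median of 3.88 over the active genes. It was at least 2 in 65.4% of them and at least 10 in 24.8%, while 24.1% had a ratio below 1. Grouped into 10 classes of 1359 active genes by body density, the median promoter density was higher in each class, from 0.332 to 9.31 RPKM. The median ratio was 3.93 in the lowest class, 5.22 in the sixth and 1.98 in the highest. Body density is part of both measures, so this order is a description. The median length was 42422 bp in the lowest class and 9478 bp in the highest. By list, active splicing factor genes had a median ratio of 1.44, pluripotency genes 1.5 and ribosomal protein genes 1.56, against 5.19 for mitosis genes and 6.11 for proteasome genes. These ratios use the start of the longest transcript, which is not always the busiest. The ribosomal protein gene Rpl30 had 0 promoter reads there and 252 at its busiest annotated start. At the busiest start the median over all active genes was 5.31, and the list ratios were not computed.

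**Figure D4:**
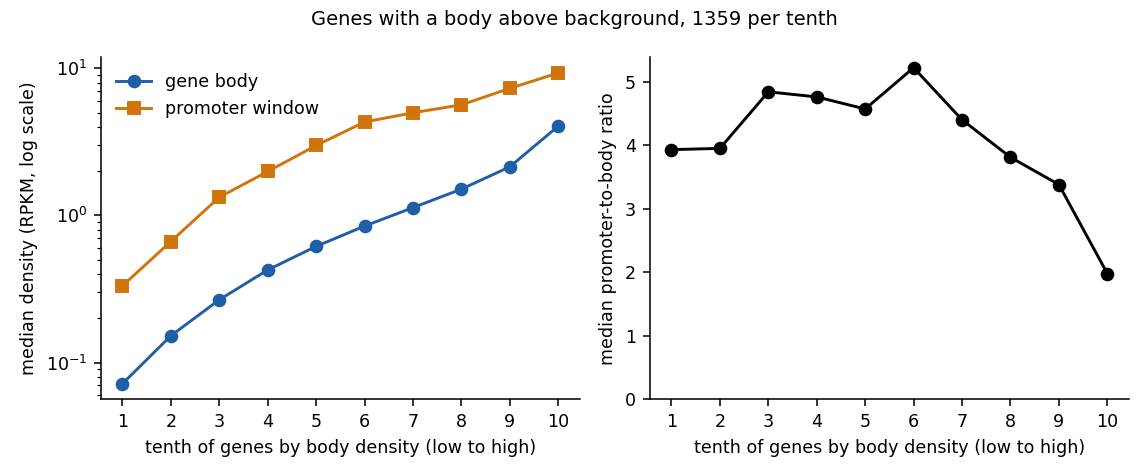
Median body and promoter density in RPKM on a log axis (left) and median promoter-to-body ratio (right) over 10 classes of 1359 active genes ordered by body density. Promoter density is higher in every class than in the one before, and the ratio is lowest in the highest class (1.98).

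Some genes were dense at the promoter and much less dense in the body. Fos, the immediate early factor gene (chromosome 12, 86814840 to 86818223), had 372 promoter reads and 10 body reads, a ratio of 253 (136 to 531), while its family relative Jun had 73 and 260. Of the Fos promoter reads 53.8% shared 1 position, and with each position counted once its ratio was 23.8 and its promoter rank 1305 instead of 25. Taf4b, a TFIID subunit gene of 117115 bp, had 488 promoter reads and 523 body reads at 0.525 body RPKM and a ratio of 309 (272 to 350). Mertk, a receptor kinase gene for the uptake of dying cells, had 153 and 147 reads (ratio 305), and Pik3r3, a regulatory subunit gene of PI3-kinase, 108 and 159 (ratio 156). These are long genes, so the body density is low although the reads are not few. With each position counted once, the ratios were 52.2 for Taf4b, 128 for Mertk and 75.9 for Pik3r3. The lincRNA gene 4930555B11Rik had 266 promoter reads and 0 body reads. Of the 10 genes of lowest body percentile among the 2% most densely read promoters, 5 had the start of another gene, on either strand, within 2000 bp. Only reads on the gene's own strand were counted, and whether any of them belonged to the other start was not tested.

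In the opposite case, most genes had promoter reads at another annotated start than the one used. The 10 genes of lowest promoter percentile among the 2% most densely read bodies had 0 reads at the start of their longest transcript. The ribosomal protein gene Rpl30 had 324 body reads and 0 promoter reads there, but 252 at a start annotated 418 bp downstream. Eif5a had 61 reads at a start 572 bp downstream and Rps10 had 47 at one 1353 bp downstream. Gas5 had 3 reads at its longest model's start and 2371 at one 581 bp downstream. Vim had 21 reads at its busiest start, Maz 5, and Clec11a and Gm11292 had 0 at their only annotated start. A busiest start is picked by its reads, so its count cannot be lower than at the start of the longest transcript. Of the 228 body reads of Gm11292, 18.9% shared 1 position, and it ranked 3194 with each position counted once.

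Around the start, reads formed a narrow sense peak and a broader antisense peak upstream. The profile was taken over 2933 promoters with at least 20 reads and no start of another gene within 2000 bp. The sense peak lay 20 to 39 bp after the start, with 39.1 reads per gene and 100 bp, against 2.44 from 1000 to 2000 bp and 1.19 from 1000 to 500 bp before the start. The antisense peak lay 180 to 161 bp upstream with 12 reads per 100 bp. With each position counted once, the sense peak moved to 40 to 59 bp (17.6 positions per 100 bp), and the antisense peak stayed in the same bin (5.78).

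**Figure D5:**
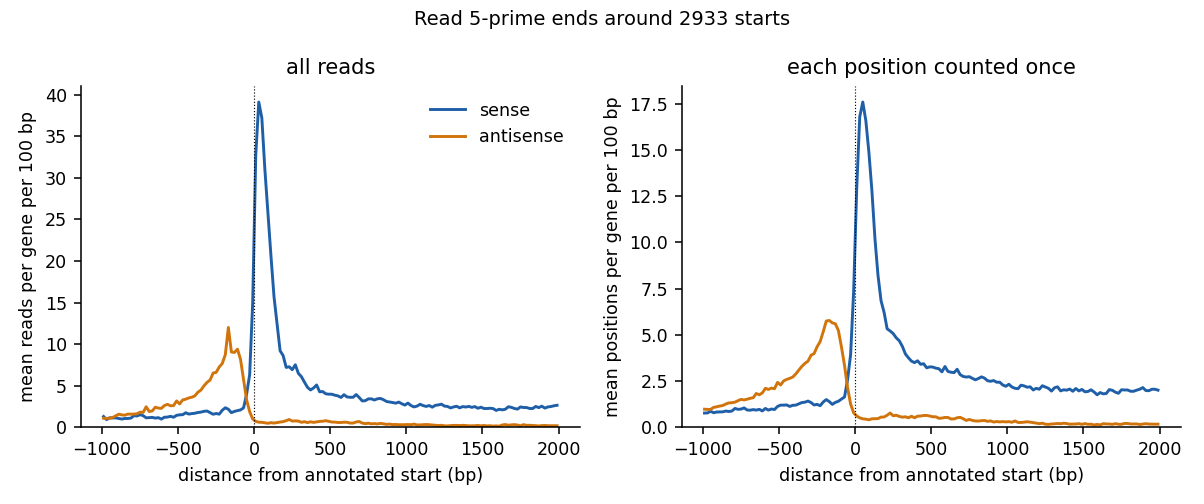
Mean reads (left) and distinct positions (right) per gene and 100 bp on the sense and antisense strand, against the distance from the annotated start, for 2933 promoters with no other gene start within 2000 bp. Sense reads peak just after the start, and antisense reads peak between 180 and 161 bp upstream.

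The most used 5′ end in a promoter window showed which base polymerase reads began with. At 842 promoters this position held at least 10 reads, at a median of 35 bp after the annotated start (quartiles 4 and 66 bp). A pyrimidine followed by a purine, the core of the initiator element, stood before and at the position in 79.5% of them, against 22.4% of all positions in these windows. CA alone accounted for 45.7%, against 4.78%. The ends of reads are not even in base use within bodies either, where 41.6% of 83502 sampled 5′ ends were at a purine after a pyrimidine, 37.3% were at A and 12.3% at CA. For comparison, 20 bases around the most used end at the busiest annotated start are shown for the 4 promoters with the most reads at 1 position, ribosomal protein genes and ends at C aside, in gene orientation, with the base of the 5′ end in capitals.
Ndufs7 (chr10:79711888-79711907, +, 1503 reads): gcagctgactAatgtcgtct
Fcgr3 (chr1:172994898-172994917, -, 419 reads): ccgtcccagcGgtgcagcgt
Calr (chr8:87370756-87370775, -, 296 reads): cgcgtccgtcAataccgcag
Srsf5 (chr12:82046514-82046533, +, 282 reads): taagtgcgtcAgttgtggag
The end falls on an A after T in Ndufs7, on an A after C in Calr and Srsf5, and on a G after C in Fcgr3.

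Ribosomal protein genes used another base. Of 18 with such a position, 16 (88.9%) began at C, against 66 of 824 other genes (8.01%). In 14 of the 18 the C was followed by 4 more pyrimidines, as in the 5′ terminal oligopyrimidine start known for mRNAs of the translation machinery, against 17 of the 824 (2.06%). The share at C was 57.5% of 40 ribosomal protein genes when 5 reads were enough, and 68.0% of 25 when the busiest annotated start was used. The sequences below show the C in capitals at the busiest annotated start of 5 ribosomal protein genes. In Rpl36a, Rpl37 and Rpl8 at least 4 pyrimidines follow the C, and in Rps9 and Rpl3 the run ends after 3.
Rps9 (chr7:3655632-3655651, +, 196 reads): ccttgtctctCtttgtctcg
Rpl36a (chrX:131120217-131120236, +, 140 reads): tagcctctctCtttccgagc
Rpl37 (chr15:5066645-5066664, +, 125 reads): ctcttccggtCtctttggcc
Rpl3 (chr15:79913773-79913792, -, 103 reads): cctggtcgctCtctatctgc
Rpl8 (chr15:76734505-76734524, +, 41 reads): cgtctatttcCtctttcggc
Genes outside the ribosomal protein list with a C followed by at least 4 pyrimidines included the elongation factor gene Eef2, the helicase gene Eif4a2, the chaperone gene Hsp90ab1 and, at its busiest annotated start, Gas5.
Gas5 (chr1:162965287-162965306, +, 909 reads): ccatctcagcCtttcggagc
Eif4a2 (chr16:23107821-23107840, +, 562 reads): gtccgcctgtCttttcagtc
Eef2 (chr10:80639381-80639400, +, 202 reads): cgtcagcggtCtcttccgcc
Hsp90ab1 (chr17:45710206-45710225, -, 36 reads): ttcgggagctCtcttgagtc
Of the snoRNA host list, 8 of 10 genes with such a position began at C, and of the translation factors 4 of 9. Ribosome biogenesis genes (0 of 8), splicing factor genes (0 of 8) and immediate early genes (0 of 7) had none; all 7 of the last began at A.

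Sequence around the start differed between read and unread promoters, though the ranking used no sequence. The ratio of observed to expected CpG from 250 bp before to 250 bp after the start was at least 0.6 at 50.8% of all promoters. It was at least 0.6 at 14.4% of promoters with no read and at 88.2% of those with at least 20 reads. Bodies behind the 10530 CpG-rich promoters were active in 92.1% of cases, against 38.2% behind the 10186 others. The median promoter-to-body ratio of active genes was 4.59 for the first and 1.93 for the second. Of the pluripotency genes, 7 of 21 (33.3%) had a CpG-rich promoter by this measure, against 62 of 68 ribosomal protein genes (91.2%). The GC box GGGCGG, searched on both strands over 100 bp upstream, was present at 32.7% of all promoters and at 49.3% of those with at least 20 reads. CCAAT, searched likewise, was present at 19.7% of all promoters, at 28.4% of those with at least 20 reads and at 14 of 20 mitosis genes (70%). A match of letters is not evidence of a bound factor.

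TATAAA on the gene strand from 40 to 16 bp upstream was rare, at 1.92% of all promoters and 1.13% of those with at least 20 reads, but it was found at 14 of the 208 most densely read (6.73%). The 60 bases before the annotated start are shown for 4 of these, with matches to TATAAA and to CCAAT on either strand in capitals. These 4 were picked among the leading 25 promoters with a most used 5′ end within 5 bp of the annotated start.
Hist1h1d (chr13:23646841-23646900, +): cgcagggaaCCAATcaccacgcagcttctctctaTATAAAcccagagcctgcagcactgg
Srsf3 (chr17:29169558-29169617, +): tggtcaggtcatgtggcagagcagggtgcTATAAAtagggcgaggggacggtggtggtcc
Hn1 (chr11:115375702-115375761, -): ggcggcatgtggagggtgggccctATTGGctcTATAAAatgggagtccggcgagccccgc
Fos (chr12:86814780-86814839, +): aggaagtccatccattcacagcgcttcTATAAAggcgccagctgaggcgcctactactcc
The most used 5′ end lay 4 bp after the annotated start in Hist1h1d, 3 bp after it in Srsf3 and Hn1, and at the start itself in Fos, where it took 53.8% of the promoter reads. Their closeness to the start was fixed by that choice. Of the 842 promoters with at least 10 reads at 1 position, 17.5% had it within 5 bp of the start. Hist1h1d encodes a linker histone and Srsf3 a splicing factor.

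Within long bodies polymerase was almost evenly spread. In 4023 genes with a body of at least 30000 bp and 100 reads, the first, middle and last stretch of equal length held a median of 35.6%, 30.8% and 32.6% of the reads. The first stretch held more than the last in 59.1% of genes. Past the annotated end, density was higher than before it. The set was 4870 genes with at least 100 body reads, a body of at least 5000 bp, the gene's most distal annotated end and no other gene on the same strand over the next 10000 bp. In these the last 5000 bp of the body averaged 13.9 reads per kb, and the first 1000 bp past the end averaged 26 reads per kb, 187% of that value. The second stretch of 1000 bp averaged 24.1, the third 17.3 and the fourth 12.5 reads per kb. By 9001 to 10000 bp past the end the average was 3.27 reads per kb, 23.5% of the level before the end. Among 4347 of these genes with at least 10 reads in the last 5000 bp, 71.5% were denser in the first 1000 bp past the end than before it, with a median of 156%. With each position counted once the average of that stretch was 174% of the level before the end.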

How the data were processed

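The authors sequenced run-on RNA of 3 V6.5 ES cell samples. Nuclei extended their transcripts with Br-UTP, and base-cleaved RNA was captured with an anti-Br-dUTP antibody, per the labels' protocols. The series design text names Eland alignment to mm9 and the removal of reads similar to rRNA; per the file headers all ES cell libraries were pooled. The sources used here do not give the Eland version or how duplicates and reads with several matches were handled. The deposited file holds 1 line per aligned read with a value of 1, so the deposited unit is a read count without any recorded normalization. Samples were grouped by title, and since no read names its sample, the pool was 1 library and no test across replicates was made.

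Positions were checked on every 400th read against the NCBIM37 assembly. With the listed value as the 1-based 5′ end, 92.6% of plus-strand and 93.4% of minus-strand reads matched with at most 2 mismatches. Models were the longest transcript per gene of the annotation supplied with that assembly (GENCODE M1), and 2169 of 22885 models of at least 2000 bp were left out for overlap on the same strand. Intervals are exact Poisson 95% intervals; ratio intervals are exact conditional ones. Python 3.11.15, numpy 2.4.6, scipy 1.17.1 and pandas 2.3.3 were used, and the counting was tested on simulated reads. Copies such as Hist1h gene clusters and pseudogenes of ribosomal protein genes may share reads.

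The genes named are the 25 highest bodies and promoters, the 10 most discordant in each direction among the top 2%, the 3 highest and the lowest member of each of 42 lists, and the ES cell markers; other genes were picked with their values in view. The members and lists were chosen with earlier results of these data known. Of the list symbols, 7 were matched by synonym and 8 were not matched. Alternatives covered positions counted once, the busiest annotated start, a body from 3000 bp, a promoter window from 100 bp before to 500 bp after the start, removal of small RNA genes, a read minimum, overlap on either strand and read length. Fibroblast reads were not used here, and a few genes that the naming rule covers are not reported here.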

Additional observations from a re-analysis of the deposited data

Results flagged for a closer look

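Several signals lay outside the windows of the ranking. The mitochondrial genome held 45197 reads, which were left out of the scaling total. A stretch of chromosome 17 from 39976001 to 39990000 held 822727 reads (9.55% of the library), one of chromosome 13 from 9829001 to 9838000 held 171011 (1.98%), and one of chromosome 18 from 73689001 to 73698000 held 30162 (0.350%). These stayed in the scaling total, which lowers every RPKM by the same factor, and were left out of the reads per Mb of a chromosome. The design text states that reads similar to rRNA had been removed. Whether the reads left in these stretches resemble rRNA was not tested.

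Replication-dependent histone genes are mostly too short for a body window. The 58 coding histone models under 2000 bp held 7422 promoter reads in all. Of these, 47 (81%) had at least 20 promoter reads, against 20.5% of the genes measured, and 37 were at or above 41 reads, the lowest count in the highest 10.0% of measured promoters. The median was 65 reads, and Hist1h3h, a histone H3 gene, was highest with 595. Many histone genes are near-identical copies, so their separate counts are uncertain.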

How the results depend on the processing

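No paired analysis was possible because the pooled reads carry no sample name, and for the same reason leaving out each replicate was not run. The median promoter-to-body ratio of active genes (3.88) was 3.42 with each position counted once, 5.31 at the busiest annotated start, 3.29 with the wider promoter window and 10.0 over genes with at least 50 body and 20 promoter reads. The Spearman correlation of promoter and body density (0.77) was 0.816, 0.804 and 0.218 under the last 3 of these, 0.753 with bodies from 3000 bp, 0.789 without genes overlapped on either strand, and 0.738 and 0.734 with 35-base and 36-base reads alone. The overlap of the highest 10.0% by body and by promoter density (35.8%) was 39.1% at the busiest start, 38.7% with the wider window, 26.3% under the read minimum and 38.0% without overlap on either strand. The read minimum left 3649 active bodies of 3650 and 651 genes that hold 50% of body reads, since fewer genes were tested. It gives no count of promoters with 20 reads. It also selects on the reads of both windows, so its ratio and correlation are not like measures to those over all genes. Fewer reads left 2017 (35-base) and 2302 (36-base) promoters with at least 20 reads. The share of ribosomal protein genes with a C at the most used 5′ end (88.9%) was 57.5% at a minimum of 5 reads, a minimum chosen after seeing the data, and 100.0% of 6 genes in 35-base reads; in other genes (8.01%) it was 10.7% at a minimum of 20 reads, also chosen later, and 10.6% in 36-base reads. The cause of these shifts was not tested except where stated. The median body percentile of the ribosomal protein list stayed between 98.1 and 99.6 over all alternatives run, whereas that of telomere genes ranged from 31.2 to 77.9. That of the lineage factors lay between 39.6 and 43.4, but without the read minimum, since 0 of 31 had at least 20 promoter reads. No promoter read was found at 7893 genes; whether depth set this was not tested.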

Other observations

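Metabolic and imprinted genes, not described above, were spread over the ranking. Mat2a, which makes the methyl donor S-adenosylmethionine, held 15.6 RPKM in the body, and Tdh, the threonine dehydrogenase gene that mouse ES cells depend on, 2.32 RPKM (2.07 to 2.59). Of 14 genes of threonine, serine and one-carbon metabolism all were active and 5 were in the highest 10.0% by body density, as were 6 of 14 cholesterol genes. Of 18 imprinted genes 18 were active and 3 were in the highest 10.0%, among them Meg3, a maternally expressed non-coding RNA (4.11 RPKM), while H19 held 5 body reads (0.361 RPKM). Of all genes 65.6% were active.

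Telomere genes included Rif1 (5.08 RPKM), Tinf2, a shelterin gene (4.01 RPKM), and Terf1 (2.77 RPKM). Zscan4d, a gene that few ES cells express at any time, held 0 body reads; its family has near-identical copies. Polycomb member Pcgf1 had 117 promoter reads and 8 body reads, a ratio of 60.9. In the lists not yet given, the highest 10.0% by body density held 2 of 6 primed epiblast genes, 4 of 10 polymerase II subunit genes and 3 of 5 replication-independent histone genes. It also held 68 of 314 Zfp genes, 4 of 7 long replication-dependent histone genes and 0 of 21 clustered protocadherin genes. Of these protocadherin genes 4 were active, against 65.6% of all genes.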
